A study of Mus musculus with 2 samples.

Results

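CD4 T cells are helper and regulatory lymphocytes that carry the CD4 coreceptor. They were taken here as the droplet barcodes chosen by a rule on their own transcripts. A barcode was a CD4 T cell when it held at least 200 detected genes, at most 15% mitochondrial counts, at least 2 unique molecular identifiers (UMIs) of Cd3d, Cd3e and Cd3g together, at least 1 UMI of Cd4, 0 of Cd8a and Cd8b1, at most 3 of Cd79a and Cd79b, and under 4% of its UMIs from S100a8 and S100a9. The rule found 117 CD4 T cells among 15842 kept barcodes, 40 in the Mg-TAGelMA nail library and 77 in the Mg nail library.

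The study used mice with an osteoporotic fracture whose femur held an intramedullary nail, and it profiled marrow of the femur together with cells that stuck to the implant. One library came from mice with a Mg-TAGelMA nail and the other from mice with a plain magnesium (Mg) nail, so both groups carried a magnesium rod and a fracture. GelMA is gelatin methacryloyl, a hydrogel made from gelatin; TA is left unexplained in the labels. The strain, age and number of mice, any pooling of animals and how the marrow was joined with the adherent cells are not stated, and RNA was captured with the 10x Chromium 3′ v3 kit.

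Helper T cells recognise peptides on MHC class II molecules through a T cell receptor of alpha and beta chains joined to the CD3 subunits, with CD4 as coreceptor. Naive cells recirculate through lymphoid organs and marrow with the help of the chemokine receptor CCR7, effector and memory cells express other homing receptors and cytokines, and regulatory cells are defined by the transcription factor FOXP3. In bone, T cells can supply the osteoclast factor RANKL (Tnfsf11) and other cytokines, while regulatory T cells are known for restraining inflammation in marrow.

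With 1 library per nail, differences between the nails could not be tested, and cells are not replicates. Each interval given in brackets is an exact 95% interval that covers counting error only. The size rule asked that this interval of a gene's ratio lie wholly beyond 2-fold and that the higher side reach 50 CPM, the gene's UMIs scaled to a common total of UMIs over the summed cells of a class. A sum of 0 UMIs was set to 3 for the ratio. The libraries differed in ways that reach every result between them. Gm42418, a gene model on chromosome 17 (39846958 to 39848788 in mm10) that overlaps ribosomal RNA repeats, had 1664 CPM in Mg-TAGelMA CD4 T cells, against 80059 CPM in Mg CD4 T cells. Long-intron genes had higher levels with the Mg-TAGelMA nail, and the file headers name Cell Ranger 7.0.1 for it and 5.0.0 for the Mg library. For this reason the comparisons within each library, made on cells of the same processing, are given first.

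The values that chose the members are a description only. The CD3 genes together had 2 UMIs in the lowest, 10 in the median and 29 in the highest Mg-TAGelMA CD4 T cell, against 2, 6 and 21 UMIs in Mg CD4 T cells. Cd4 was sparse, with a median of 1 UMI per cell in both libraries and a maximum of 3 in Mg-TAGelMA cells and 5 in Mg cells. A single Cd4 UMI placed 27 of the 40 Mg-TAGelMA cells and 41 of the 77 Mg cells inside the rule. Just outside, 131 Mg-TAGelMA and 175 Mg barcodes met every other condition with 0 UMIs of Cd4 and of Cd8a and Cd8b1, so the rule left more CD3-positive barcodes without a coreceptor call than it kept as CD4 T cells. At the other limits, 1 Mg-TAGelMA and 8 Mg members had only 2 CD3 UMIs, 3 barcodes of each library fell out with 1 CD3 UMI, and 1 Mg-TAGelMA and 4 Mg barcodes fell out with a single Cd8 UMI. Between 1 and 3 UMIs of Cd79a and Cd79b were present in 15 Mg-TAGelMA and 21 Mg members, and 1 Mg-TAGelMA and 4 Mg barcodes fell out with 4 or more.

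Genes that the rule did not use also marked these barcodes as T cells. Trac, the constant region of the T cell receptor alpha chain, was detected in 35 of 40 Mg-TAGelMA and 65 of 77 Mg CD4 T cells, against 2.08% of Mg-TAGelMA and 1.29% of Mg B-lineage barcodes. Trbc2, a beta chain constant region, was detected in 40 of 40 Mg-TAGelMA and 74 of 77 Mg cells. The costimulatory receptor gene Cd28 was detected in 34 of 40 Mg-TAGelMA and 61 of 77 Mg cells, and the kinase gene Lck in 27 of 40 Mg-TAGelMA and 56 of 77 Mg cells. Cd40lg, the helper ligand that activates B cells, was found in 12 of 40 Mg-TAGelMA CD4 T cells, against 1 of 142 CD8 T cells, and in 10 of 77 Mg CD4 T cells, against 2 of 251 CD8 T cells. CD8 T cells here met the same rule with a Cd8a or Cd8b1 UMI and without Cd4. Zbtb7b, which encodes ThPOK, the factor that fixes the CD4 lineage in the thymus, was detected in 2 of 40 CD4 and 5 of 142 CD8 T cells of the Mg-TAGelMA library, and in 12 of 77 CD4 (15.6%) and 8 of 251 CD8 T cells (3.19%) of the Mg library. The shares in CD4 T cells lay below those in neutrophil barcodes, 21.3% in Mg-TAGelMA and 24.96% in Mg.

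The median depth was 6755 UMIs and 2478.5 genes per Mg-TAGelMA CD4 T cell, against 4111 UMIs and 1698 genes per Mg CD4 T cell. The summed UMIs were 314280 in Mg-TAGelMA and 362357 in Mg cells. Markers of other cells were present in the summed CD4 T cells. All 12 neutrophil markers were detected in Mg-TAGelMA CD4 T cells at a summed 12428 CPM, and 11 of 12, all but Cxcr2, in Mg CD4 T cells at 3135 CPM, which is 8.65% of the level in all kept Mg-TAGelMA barcodes and 5.79% of that in all kept Mg barcodes. This list includes S100a8 and S100a9, which the rule limits, so these shares are partly set by the rule. They had the most UMIs of the list, 1164 and 1453 in Mg-TAGelMA and 296 and 407 in Mg CD4 T cells. Erythroid markers summed to 382 CPM in Mg-TAGelMA CD4 T cells, with Alas2 and Slc4a1 among those at 0, against 16572 CPM with 9 of 9 detected in Mg CD4 T cells, or 10.5% of the level in all kept Mg-TAGelMA barcodes and 42.8% of that in all kept Mg barcodes. A single Mg cell held 1089 of the 2358 Hbb-bs UMIs of its library. B cell markers summed to 1613 CPM in Mg-TAGelMA and 1101 CPM in Mg cells, with 12 of 12 detected in each, and they include Cd79a and Cd79b, which the rule also limits. Monocyte and macrophage markers summed to 652 CPM in Mg-TAGelMA and 259 CPM in Mg cells with Csf1r at 0 in both, and NK markers to 286 CPM in Mg-TAGelMA and 350.5 CPM in Mg cells with Klra8 at 0 in both, or 19.1% of the level in all kept Mg-TAGelMA and 71.4% of that in all kept Mg barcodes. Gamma delta T cell markers summed to 60.5 CPM in Mg-TAGelMA and 22.1 CPM in Mg cells, above the 6.58 CPM in all kept Mg-TAGelMA and 10.97 CPM in all kept Mg barcodes, and platelet markers to 3.18 CPM in Mg-TAGelMA and 2.76 CPM in Mg cells. Each of the 4 gamma delta genes detected in Mg-TAGelMA cells lay in 1 cell, Trdc with 10 UMIs and Tcrg-C1 with 6. In Mg cells Trgv2 had 4 UMIs in 1 cell, and Trdc had 2 UMIs in 2 cells. Plasmacytoid dendritic cell markers summed to 296 CPM in Mg-TAGelMA and 204 CPM in Mg cells, or 40.7% of the level in all kept Mg-TAGelMA and 38.9% of that in all kept Mg barcodes. The remaining lists, including plasma cell markers at 30.4% in Mg cells, were at 5.46 to 30.4% of the level in all kept barcodes. Plasma cell markers to 162 CPM in Mg-TAGelMA and 124 CPM in Mg cells, and basophil and mast cell markers to 111 CPM in Mg-TAGelMA and 38.6 CPM in Mg cells. Across the 2 libraries 21 barcode sequences were shared, and 0 of the CD4 T cells carried one.

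CD4 T cells made up 0.532% of kept Mg-TAGelMA barcodes (40 of 7523, 0.380 to 0.723) and 0.926% of kept Mg barcodes (77 of 8319, 0.731 to 1.16), a ratio of 0.574 (0.382 to 0.852). CD8 T cells were also a smaller share of the Mg-TAGelMA library, at 1.89% (142 cells) against 3.02% (251 cells) in the Mg library. Within the pair of classes CD4 T cells took 21.98% of Mg-TAGelMA cells (16.2 to 28.7) and 23.5% of Mg cells (19.0 to 28.4). The CD4 to CD8 ratio of Mg-TAGelMA over Mg was 0.918 (0.610 to 1.36), so the counts do not separate the libraries in this balance. The rule needs UMIs, and depth therefore bears on the shares. After each barcode was thinned to 1000 UMIs before the rule was applied, 3 of 7340 Mg-TAGelMA and 18 of 7689 Mg barcodes were CD4 T cells, a ratio of 0.175 (0.0329 to 0.598), with 183 Mg-TAGelMA and 630 Mg barcodes left out as shallower. Thinned this way, CD4 T cells were 8.82% of Mg-TAGelMA cells of both classes and 19.6% of Mg cells.

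Foxp3 divided the CD4 T cells into 2 descriptive groups. A Foxp3 UMI was present in 11 of 40 Mg-TAGelMA cells (27.5%, 14.6 to 43.9) and 12 of 77 Mg cells (15.6%, 8.32 to 25.6). The other 29 Mg-TAGelMA cells (72.5%) and 65 Mg cells (84.4%) held none, and the intervals overlapped between the libraries. Ccr7 was detected in 19 Mg-TAGelMA cells (47.5%, 31.5 to 63.9) and 21 Mg cells (27.3%, 17.7 to 38.6), against 66.2% of Mg-TAGelMA and 47.4% of Mg CD8 T cells, 48.0% of Mg-TAGelMA and 19.3% of Mg B-lineage barcodes, and 2.83% of Mg-TAGelMA and 0.693% of Mg neutrophil barcodes. By group, Ccr7 was found in 4 of 11 Mg-TAGelMA cells with Foxp3 and 15 of 29 without, and in 0 of 12 Mg cells with Foxp3 (up to 26.5%) and 21 of 65 without.

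**Figure D1:**
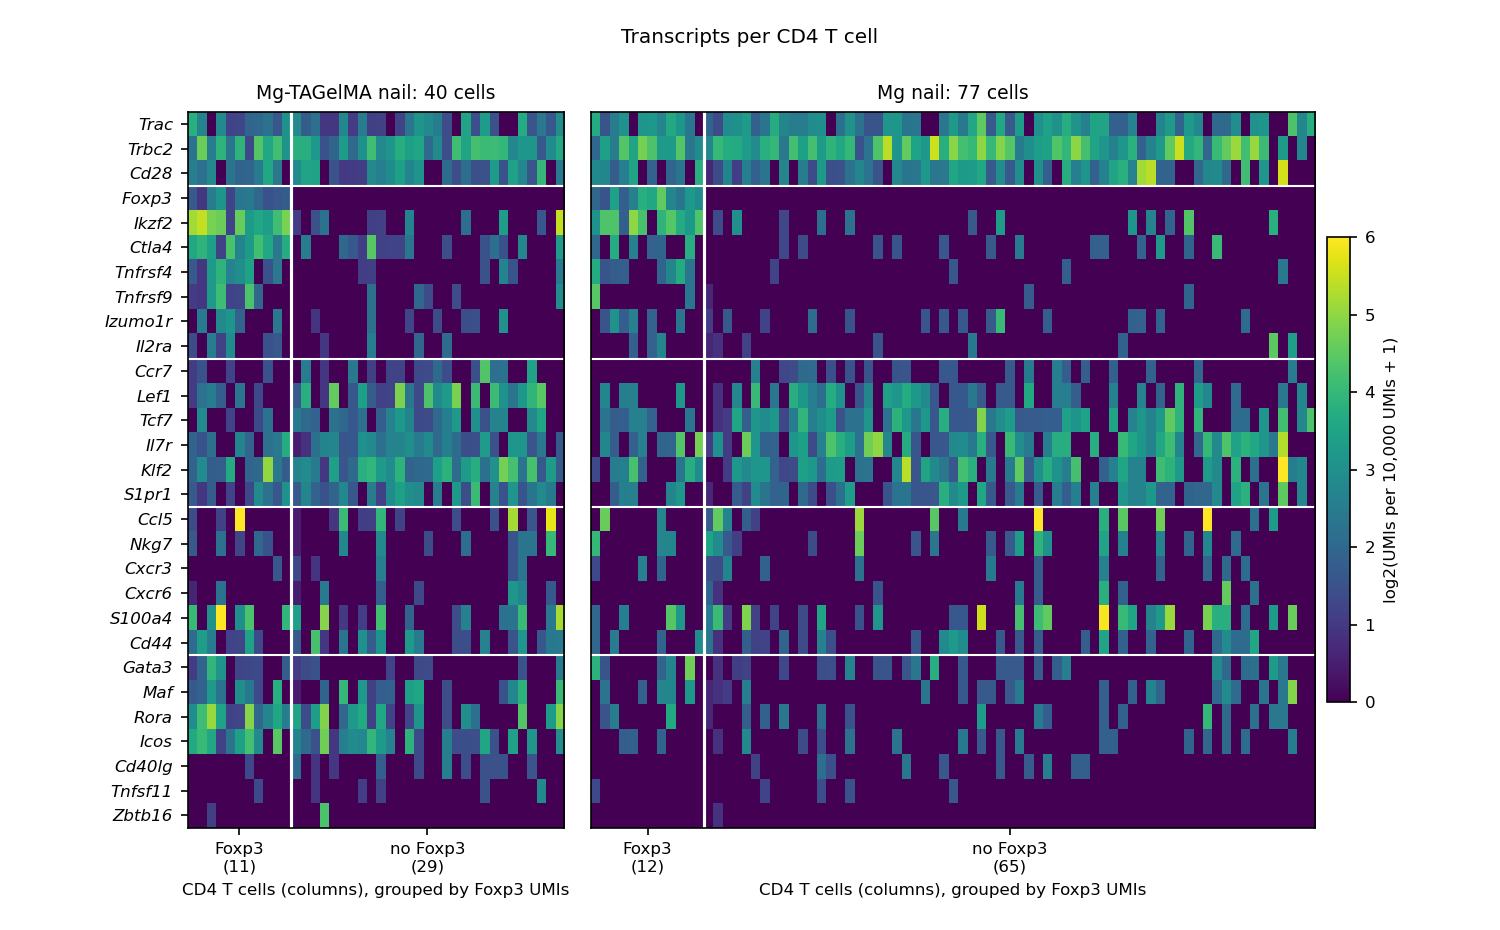
Transcript levels of 29 genes (rows) in each of the 117 CD4 T cells (columns), as log2 of UMIs per 10000 UMIs plus 1, with values over 6 drawn as 6. Columns are grouped in each library by a Foxp3 UMI (11 Mg-TAGelMA and 12 Mg cells) or none (29 Mg-TAGelMA and 65 Mg cells). Ikzf2 fills nearly every Foxp3 column, Ccl5 is found in 15 Mg-TAGelMA and 17 Mg columns, and Icos and Rora are denser in the Mg-TAGelMA panel.

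Against CD8 T cells of the same library, CD4 T cells had higher levels of 5 of 8 regulatory T cell genes, and lower levels of 3 of 5 cytotoxic genes, in both libraries. In the Mg-TAGelMA library 95 genes were higher and 41 lower in CD4 T cells of 4018 genes compared, and in the Mg library 50 were higher and 10 lower of 3210. Of 2789 genes compared in both libraries, 14 were higher in both (0.502%) and 5 lower in both (0.179%). The genes of the rule were left out. Of the 14 genes, 10 stayed past the rule in both libraries without the cell that held most UMIs of the gene. Tnfrsf4, Iigp1, Tmem64 and Itgb1 did not.

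Regulatory T cell genes led this comparison. Foxp3 (chromosome X, 7573644 to 7595245, mm10) had 85.9 CPM in CD4 and 0.687 CPM in CD8 T cells of the Mg-TAGelMA library, a ratio of 125 (20.6 to 5123). In the Mg library it had 91.1 CPM in CD4 and 0.588 CPM in CD8 T cells, a ratio of 155 (25.9 to 6304), and both CD8 sums rest on 1 UMI. Ctla4, the inhibitory receptor that competes with CD28 (chromosome 1, 60887000 to 60915832), had 442 CPM in CD4 and 71.4 CPM in CD8 T cells of the Mg-TAGelMA library, a ratio of 6.19 (4.77 to 8.06). In the Mg library it had 93.8 CPM in CD4 and 12.3 CPM in CD8 T cells, a ratio of 7.60 (4.29 to 13.8). Ikzf2, which encodes the regulatory cell factor Helios, had 789 CPM in CD4 and 181 CPM in CD8 T cells of the Mg-TAGelMA library, a ratio of 4.35, and 268 CPM in CD4 and 62.9 CPM in CD8 T cells of the Mg library, a ratio of 4.26. Izumo1r, the folate receptor 4 gene, had 102 CPM in CD4 and 3.43 CPM in CD8 T cells of the Mg-TAGelMA library and 91.1 CPM in CD4 and 12.3 CPM in CD8 T cells of the Mg library. Tnfrsf4, the costimulatory receptor OX40 (chromosome 4, 156013843 to 156016612), had 162 CPM in CD4 and 3.43 CPM in CD8 T cells of the Mg-TAGelMA library and 60.7 CPM in CD4 and 1.18 CPM in CD8 T cells of the Mg library. Of the 8 genes of the regulatory T cell list compared in both libraries, 5 were higher in both, with a median log2 ratio of 2.38 in Mg-TAGelMA and 2.96 in Mg cells, against 0.13 and 0.14 over all genes.

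The genome sequence just upstream of the RefSeq start of 3 of these genes is shown as examples from the 5 regulatory list genes higher in both libraries, the lineage factor Foxp3 and the receptors Ctla4 and Tnfrsf4, which were chosen after their values were seen. The Foxp3 and Ctla4 windows lie inside the gene spans printed above, which begin earlier than the RefSeq starts used, and the Tnfrsf4 window lies before its span. Each line gives the 250 bases before the RefSeq start on the plus strand of GRCm38.p6, 5′ to 3′, at chrX:7579426-7579675 for Foxp3, chr1:60908775-60909024 for Ctla4 and chr4:156013445-156013694 for Tnfrsf4. Capitals mark GGAAA, the core letters known from sites of NFAT, or its reverse complement TTTCC.
Foxp3: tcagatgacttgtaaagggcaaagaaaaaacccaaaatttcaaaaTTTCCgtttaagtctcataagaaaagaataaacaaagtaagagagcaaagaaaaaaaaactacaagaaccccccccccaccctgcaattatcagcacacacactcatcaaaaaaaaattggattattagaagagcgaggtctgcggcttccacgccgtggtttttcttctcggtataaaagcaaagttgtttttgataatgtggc
Ctla4: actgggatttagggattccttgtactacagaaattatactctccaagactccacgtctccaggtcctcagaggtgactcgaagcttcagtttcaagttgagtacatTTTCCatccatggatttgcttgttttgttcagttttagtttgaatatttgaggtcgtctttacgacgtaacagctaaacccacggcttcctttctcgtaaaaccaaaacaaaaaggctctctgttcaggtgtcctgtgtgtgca
Tnfrsf4: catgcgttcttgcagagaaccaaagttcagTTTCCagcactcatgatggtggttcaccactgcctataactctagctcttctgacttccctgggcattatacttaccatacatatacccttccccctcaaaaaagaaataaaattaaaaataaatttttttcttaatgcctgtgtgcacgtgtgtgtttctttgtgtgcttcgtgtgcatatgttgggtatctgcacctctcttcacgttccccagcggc

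Each of the 3 windows held 1 match, on the reverse strand in every case, and their GC content was 37.6% for Foxp3, 42.4% for Ctla4 and 42.8% for Tnfrsf4. The RefSeq table held 8 of the 14 genes higher in both libraries, and 7 of these 8 windows held the letters, all but that of Tbc1d4. Since 18254 of all 32851 windows of this length (55.6%) hold them on one strand or the other, the letters are common. A match is a description of the letters and not a site.

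The other 9 genes higher in both libraries included 3 transcription factors. Maf, a factor of helper cells that make interleukin 10, 4 or 21, had 305 CPM in CD4 and 10.99 CPM in CD8 T cells of the Mg-TAGelMA library, a ratio of 27.8 (16.3 to 50.6). In the Mg library it had 113 CPM in CD4 and 1.76 CPM in CD8 T cells, a ratio of 64.2 (20.5 to 324). It was detected in 22 of 40 Mg-TAGelMA and 25 of 77 Mg CD4 T cells, against 11 of 142 Mg-TAGelMA and 3 of 251 Mg CD8 T cells. Gata3, a factor of CD4 lineage choice and type 2 helper cells, had 127 CPM in CD4 and 26.1 CPM in CD8 T cells of the Mg-TAGelMA library (ratio 4.88) and 152 CPM in CD4 and 34.1 CPM in CD8 T cells of the Mg library (ratio 4.45). Rora, a nuclear receptor of type 17 and tissue T cells, had 767 CPM in CD4 and 107 CPM in CD8 T cells of the Mg-TAGelMA library (ratio 7.16) and 99.3 CPM in CD4 and 12.9 CPM in CD8 T cells of the Mg library (ratio 7.68), so levels differed between the libraries more than ratios did. Tbc1d4, a regulator of vesicle traffic, had ratios of 12.7 in the Mg-TAGelMA and 17.1 in the Mg library, and Ly6a, the surface antigen Sca-1, of 6.06 in the Mg-TAGelMA and 10.7 in the Mg library. Smaller ratios were those of Rgs1, a regulator of chemokine receptor signalling (3.14 and 5.13), Itgb1, the integrin beta 1 chain (2.68 and 6.12), the membrane protein gene Tmem64 (3.48 and 5.48) and Iigp1, an interferon-induced GTPase (6.37 and 4.70), each given for Mg-TAGelMA and then Mg.

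The genes lower in CD4 T cells belonged to cytotoxic and naive CD8 cells. Klrd1, the CD94 chain of NK receptors, had 3.18 CPM in CD4 and 176 CPM in CD8 T cells of the Mg-TAGelMA library, a ratio of 0.0181 that rests on 1 CD4 UMI (0.000457 to 0.102), and 46.9 CPM in CD4 and 179.8 CPM in CD8 T cells of the Mg library, a ratio of 0.261. Ctsw, the protease cathepsin W of cytotoxic cells, had 0 UMIs in CD4 T cells and 109 CPM in CD8 T cells of the Mg-TAGelMA library. With the 0 set to 3 counts over the group, its ratio there was 0.0874 (0.0178 to 0.260). In the Mg library Ctsw had 27.6 CPM in CD4 and 116 CPM in CD8 T cells. Dapl1, known from naive CD8 T cells, had ratios of 0.123 in the Mg-TAGelMA and 0.217 in the Mg library, and the surface antigen gene Ly6c2 of 0.201 in the Mg-TAGelMA and 0.304 in the Mg library. Ccl4, a chemokine of activated cytotoxic cells, had 60.5 CPM in CD4 and 194 CPM in CD8 T cells of the Mg-TAGelMA library and 5.52 CPM in CD4 and 57.6 CPM in CD8 T cells of the Mg library, and it was not past the rule in both without its highest cell. Of 5 cytotoxic genes compared in both libraries 3 were lower in both, with median log2 ratios of -2.48 in the Mg-TAGelMA and -1.94 in the Mg library. Of 23 genes of the T cell receptor complex and its proximal signalling 0 were past the rule in both (medians 0.30 in Mg-TAGelMA and 0.27 in Mg), and of 14 naive and recirculation genes 1 was lower in both (medians -0.17 in Mg-TAGelMA and -0.28 in Mg).

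**Figure D2:**
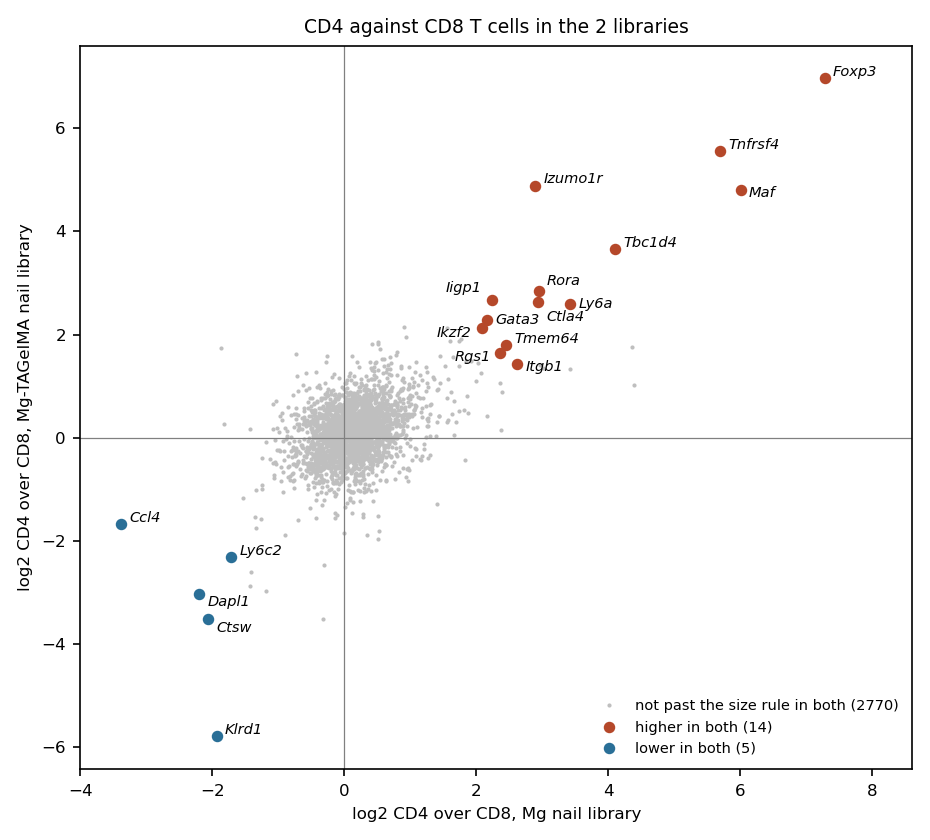
Log2 ratio of CD4 over CD8 T cells for 2789 genes in the Mg-TAGelMA nail library (vertical axis) and the Mg nail library (horizontal axis). Red points are the 14 genes higher past the size rule in both libraries, blue points the 5 lower in both, and grey points the rest; Foxp3 lies farthest to the upper right, and Ctsw is drawn with its 0 UMIs in Mg-TAGelMA CD4 T cells set to 3.

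Foxp3 itself was rare outside CD4 T cells. It was detected in 1 of 142 Mg-TAGelMA CD8 T cells (0.704%, median depth 8520 UMIs) and 1 of 251 Mg CD8 T cells (0.398%, median depth 6447 UMIs), and in 1 of 1734 Mg-TAGelMA and 1 of 3492 Mg B-lineage barcodes (median depths 5281 and 3643 UMIs). The share of CD4 T cells with a Foxp3 UMI had a ratio of 1.76 between Mg-TAGelMA and Mg (0.705 to 4.37). With each CD4 T cell thinned to 1000 UMIs, it was 3 of 40 (7.50%) in Mg-TAGelMA and 7 of 77 (9.09%) in Mg cells, so no order of the libraries was read from it. In summed cells Foxp3 had 85.9 CPM in Mg-TAGelMA and 91.1 CPM in Mg CD4 T cells, a ratio of 0.943 (0.546 to 1.62).

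Within the CD4 T cells, those with a Foxp3 UMI had higher levels of several other genes of regulatory cells in both libraries. They were compared with the CD4 T cells without Foxp3, with Foxp3 itself left out, at median depths of 7225 UMIs with Foxp3 and 6304 UMIs without in the Mg-TAGelMA library, and 3787 UMIs with Foxp3 and 4515 UMIs without in the Mg library. In the Mg-TAGelMA library 50 genes were higher and 17 lower of 4302, and in the Mg library 35 and 6 of 3890. Of 3044 genes compared in both, 10 were higher in both (0.329%) and 1 was lower in both (0.0329%). Only Ikzf2 and Tnfrsf4 stayed past the rule in both libraries without the cell that held most UMIs of the gene.

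Ikzf2 had 2353 CPM in cells with Foxp3 and 185 CPM in the others of the Mg-TAGelMA library, a ratio of 12.7 (9.08 to 18.2). In the Mg library it had 1399 CPM with Foxp3 and 107 CPM without, a ratio of 13.1 (8.47 to 20.4). By cells, it was detected in 11 of 11 Mg-TAGelMA cells with Foxp3 and 10 of 29 without, and in 11 of 12 Mg cells with Foxp3 and 12 of 65 without. Tnfrsf4 had 479.7 CPM in cells with Foxp3 and 39.7 CPM in the others of the Mg-TAGelMA library, a ratio of 12.1 (5.80 to 28.2), and 399.6 CPM with Foxp3 and 12.6 CPM without in the Mg library, a ratio of 31.7 (10.4 to 129). It was detected in 9 of 11 Mg-TAGelMA cells with Foxp3 and 6 of 29 without, and in 8 of 12 Mg cells with Foxp3 and 4 of 65 without. Ctla4 had 1051 CPM in cells with Foxp3 and 207 CPM in the others of the Mg-TAGelMA library (ratio 5.07) and 311 CPM with Foxp3 and 63.0 CPM without in the Mg library (ratio 4.93). It was found in 11 of 11 Mg-TAGelMA cells with Foxp3 and 15 of 29 without, and in 6 of 12 Mg cells with Foxp3 and 13 of 65 without.

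Tnfrsf9, the costimulatory receptor 4-1BB, had 457 CPM in cells with Foxp3 and 44.1 CPM in the others of the Mg-TAGelMA library and 333 CPM with Foxp3 and 9.45 CPM without in the Mg library, where only 2 of the cells with Foxp3 held it. Gata3 had 308 CPM with Foxp3 and 57.3 CPM without in the Mg-TAGelMA library (ratio 5.38) and 422 CPM with Foxp3 and 113 CPM without in the Mg library (ratio 3.72). The other genes higher in both, with their Mg-TAGelMA and then Mg ratios, were Icam1, an adhesion ligand (20.7 and 10.6), Dusp4, a MAP kinase phosphatase (7.12 and 14.1), Tent5a, a poly(A) polymerase (8.14 and 9.86), Zfp36l1, an mRNA decay factor (3.47 and 3.91), and the interferon-induced Ifi27l2a (2.64 and 4.08). Satb1, a chromatin organiser known to be held low in regulatory T cells, was the gene lower in both, with 457 CPM in cells with Foxp3 and 1517 CPM in the others of the Mg-TAGelMA library (ratio 0.301) and 66.6 CPM with Foxp3 and 457 CPM without in the Mg library (ratio 0.146). Further members of the list did not pass the rule in both libraries. Il2ra, the high-affinity interleukin 2 receptor chain, was detected in 6 of 11 Mg-TAGelMA cells with Foxp3 and 4 of 29 without, and in 3 of 12 Mg cells with Foxp3 and 8 of 65 without. Izumo1r was detected in 5 of 11 Mg-TAGelMA cells with Foxp3 and 7 of 29 without, and in 6 of 12 Mg cells with Foxp3 and 15 of 65 without. Nrp1, a surface protein of thymus-derived regulatory cells, had 194 CPM with Foxp3 and 44.1 CPM without in the Mg-TAGelMA library and 355 CPM with Foxp3 and 59.9 CPM without in the Mg library.

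As a list, 4 of 11 regulatory T cell genes compared in both libraries were higher in both, and 11 of 11 had a positive log2 ratio in each library, with medians of 2.14 in Mg-TAGelMA and 2.57 in Mg cells, against 0.05 and 0.19 over all genes. The naive and recirculation list pointed the other way, with a positive ratio for 1 of 13 genes in each library and medians of -0.53 in Mg-TAGelMA and -0.60 in Mg cells. Lef1, a factor of naive T cells, had 183 CPM in cells with Foxp3 and 737 CPM in the others of the Mg-TAGelMA library and 199.8 CPM with Foxp3 and 353 CPM without in the Mg library. The proliferation list differed in sign between the libraries, with medians of 0.50 in Mg-TAGelMA and -0.58 in Mg cells, and so did the effector and memory list (0.44 in Mg-TAGelMA and -0.27 in Mg cells).

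**Figure D3:**
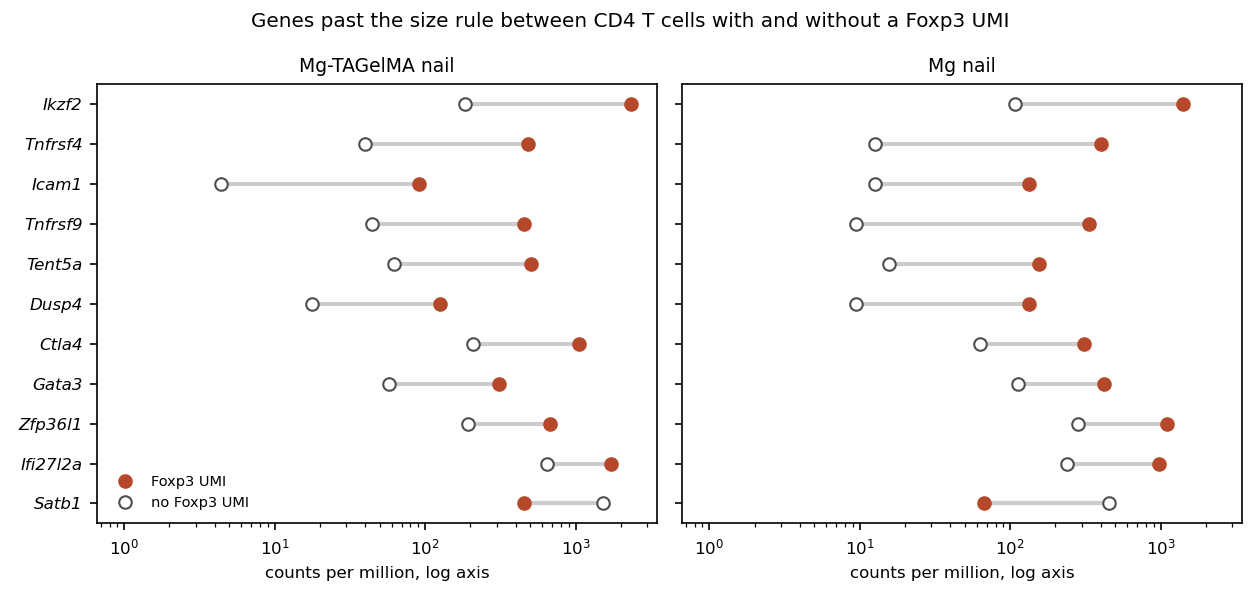
Level in CPM (log axis) of the 11 genes past the size rule in both libraries between CD4 T cells with a Foxp3 UMI (filled) and without one (open), Mg-TAGelMA nail on the left and Mg nail on the right. Filled points lie to the right for 10 genes and to the left for Satb1 in both libraries.

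Transcripts of effector and memory cells were found in a part of the CD4 T cells of each library. Ccl5, a chemokine of effector and memory T cells, was detected in 15 of 40 Mg-TAGelMA cells (37.5%, 22.7 to 54.2) and 17 of 77 Mg cells (22.1%, 13.4 to 33.0), against 57.0% of Mg-TAGelMA and 25.9% of Mg CD8 T cells, and 18.8% of Mg-TAGelMA and 6.47% of Mg neutrophil barcodes. Its UMIs were uneven, since 52 of 135 in Mg-TAGelMA and 114 of 277 in Mg cells lay in 1 cell. Nkg7, a granule protein of cytotoxic and type 1 cells, was detected in 14 Mg-TAGelMA cells (35%) and 22 Mg cells (28.6%), against 19.9% of Mg-TAGelMA and 15.9% of Mg neutrophil barcodes. In CD8 T cells Nkg7 was found in 83.8% of the Mg-TAGelMA and 80.9% of the Mg class.

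The chemokine receptors of effector cells were rarer in number but nearly absent from neutrophil barcodes. Cxcr3, the receptor of type 1 cells, was detected in 6 of 40 Mg-TAGelMA cells (15%, 5.71 to 29.8) and 15 of 77 Mg cells (19.5%, 11.3 to 30.1), against 18.3% of Mg-TAGelMA and 17.5% of Mg CD8 T cells, and 1.17% of Mg-TAGelMA and 0.462% of Mg neutrophil barcodes. Cxcr6, a receptor of tissue-resident cells, was detected in 9 Mg-TAGelMA cells (22.5%, 10.8 to 38.5) and 9 Mg cells (11.7%, 5.49 to 21.0), against 20.4% of Mg-TAGelMA and 19.9% of Mg CD8 T cells, and 0.260% of Mg-TAGelMA and 0.0770% of Mg neutrophil barcodes. By Foxp3, Cxcr6 was found in 2 of 11 Mg-TAGelMA cells with it and 7 of 29 without, and in 0 of 12 Mg cells with it and 9 of 65 without. Cd40lg was found in 1 of 11 Mg-TAGelMA cells with Foxp3 and 11 of 29 without, and in 0 of 12 Mg cells with Foxp3 and 10 of 65 without. S100a4, a calcium-binding protein of memory cells, was detected in 19 of 40 Mg-TAGelMA and 32 of 77 Mg cells, beside 45.1% of Mg-TAGelMA and 13.5% of Mg CD8 T cells, and 31.1% of Mg-TAGelMA and 10.8% of Mg neutrophil barcodes.

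Genes that define helper lineages were sparse. Tbx21, the T-bet gene of type 1 cells, was detected in 3 of 40 Mg-TAGelMA and 6 of 77 Mg CD4 T cells, and its cytokine Ifng in 3 Mg-TAGelMA and 7 Mg cells, against 7 of 3075 Mg-TAGelMA and 1 of 1298 Mg neutrophil barcodes (median depths 6500 and 4612 UMIs). Gata3 was found in 16 Mg-TAGelMA and 30 Mg cells. Il17a, the cytokine of type 17 cells, was found in 2 Mg-TAGelMA and 0 Mg cells. Il4 and Il21 had 0 UMIs in both libraries, which allows a share of cells with a UMI of up to 8.81% in Mg-TAGelMA and 4.68% in Mg cells (Clopper-Pearson). Il10, an inhibitory cytokine, was found in 5 of 40 Mg-TAGelMA and 0 of 77 Mg cells, and 4 of the 5 also held Foxp3. Cxcr5, the follicular homing receptor, was found in 4 Mg-TAGelMA cells (10%) and 3 Mg cells (3.90%), below its shares of 27.9% in Mg-TAGelMA and 13.3% in Mg B-lineage barcodes. Zbtb16, the PLZF gene of natural killer T cells, had 21 UMIs in 2 Mg-TAGelMA cells, 20 of them in 1 cell, and 1 UMI in 1 Mg cell. Mki67, a proliferation gene, was found in 4 Mg-TAGelMA and 9 Mg cells, and Pdcd1, the inhibitory receptor PD-1, in 5 Mg-TAGelMA and 3 Mg cells.

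Ligands known to act on bone were rare as well. Tnfsf11 was detected in 6 of 40 Mg-TAGelMA CD4 T cells (15%, 5.71 to 29.8) and 5 of 77 Mg CD4 T cells (6.49%, 2.14 to 14.5). It was also found in 6 of 142 Mg-TAGelMA and 3 of 251 Mg CD8 T cells, and in 3 of 3075 Mg-TAGelMA and 0 of 1298 Mg neutrophil barcodes. Summed, it had 25.5 CPM in Mg-TAGelMA and 13.8 CPM in Mg CD4 T cells, a ratio of 1.84 (0.532 to 7.17), which does not separate the libraries. Tnf was found in 4 cells of each library, shares of 10% in Mg-TAGelMA and 5.19% in Mg cells that lie below the 14.4% in Mg-TAGelMA and 14.5% in Mg neutrophil barcodes. Areg, a repair ligand of the epidermal growth factor family, had 18 UMIs in 10 Mg-TAGelMA cells and 3 UMIs in Mg cells.

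Receptor transcripts gave a partial view of the chains used. Trbc1 made up 19.3% of the Trbc1 and Trbc2 UMIs in Mg-TAGelMA CD4 T cells (72 of 374, 15.4 to 23.6) and 34.2% in Mg CD4 T cells (258 of 754, 30.8 to 37.7), against 32.8% in Mg-TAGelMA and 38.3% in Mg CD8 T cells. More Trbc1 than Trbc2 was seen in 7 of 40 Mg-TAGelMA and 19 of 77 Mg CD4 T cells. Trbc1 and Trbc2 are nearly identical in sequence, so the counting could split their reads unevenly, and a T cell clone uses either gene, so the number of cells and not of UMIs limits this share. A beta variable gene was detected in 8 Mg-TAGelMA cells (6 different genes) and 10 Mg cells (6 different genes), and an alpha variable gene in 9 cells of each library (9 different genes in each). No more than 1 variable gene of a chain was detected in any CD4 T cell. Trbv2 was the beta gene found most often in Mg cells (3 cells), and Trbv1 and Trbv13-1 in Mg-TAGelMA cells (2 cells each).

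Between the nails, the summed CD4 T cells differed mainly along intron length. Of 4103 genes compared, 542 were higher in Mg-TAGelMA cells (13.2%) and 31 lower (0.756%), with a median log2 ratio of 0.29. The median log2 ratio was -0.36 for 427 genes with under 2 kb of annotated intron, -0.31 for 564 genes with 2 to 8 kb, 0.21 for 2020 genes with 8 to 64 kb and 1.39 for 1092 genes with over 64 kb. Genes with over 64 kb supplied 378 of the 542 higher genes, and 25 of the 542 and 20 of the 31 lower genes had at most 8 kb. Across these genes the Spearman correlation of intron length with the log2 ratio was 0.563, a description over genes that share 2 libraries. The libraries were counted with different Cell Ranger versions, and nail and library processing cannot be told apart. TMM scaling shifted the log2 ratios by 0.13 and median-ratio scaling by 0.21, and under TMM 465 genes were higher and 49 lower, so 90.5% of the calls were higher, against 94.6% with the plain sum. Ratios below are from the plain sum, and can be read against these shifts, except where the scale of short-intron genes is named. Without the cell with most UMIs of each gene, 371 higher and 24 lower calls were left.

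**Figure D4:**
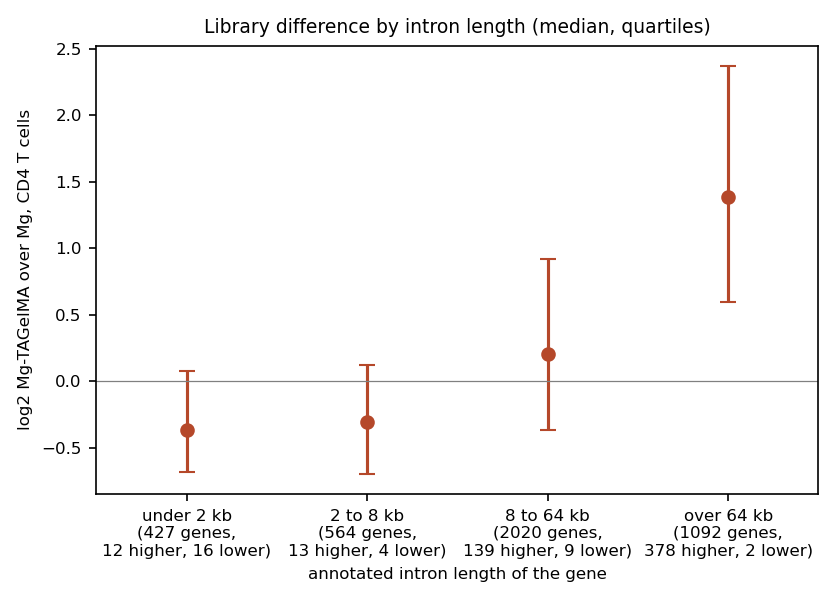
Log2 ratio of Mg-TAGelMA over Mg in summed CD4 T cells (vertical axis) for genes in 4 classes of annotated intron length (horizontal axis); points are medians and bars the quartiles. The medians are -0.36, -0.31, 0.21 and 1.39, with 378 of the 542 higher genes in the class over 64 kb.

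Genes with at most 8 kb of intron, scaled to their own total, were therefore compared as well. Of 1577 such genes 54 were higher in Mg-TAGelMA CD4 T cells (3.42%) and 8 lower (0.507%). Gm42418 alone had 3850 CPM of this total in Mg-TAGelMA and 129101 CPM in Mg cells, which lifts the ratios of the other genes, and without Gm42418 and AY036118, the ribosomal gene models of this class, in the total 40 were higher and 10 lower (80% of calls higher, against 87.1%). Values in this paragraph and the next 2 are on the scale of the short-intron total, except where the scale of all genes is named. The activation and inhibitory receptor list had 3 of 3 short-intron members past the rule. Cd69, an early activation antigen that retains T cells in tissue, had 758 CPM in Mg-TAGelMA and 187 CPM in Mg CD4 T cells, a ratio of 4.06 (2.81 to 5.95), in 26 of 40 and 17 of 77 cells. Tnfaip3, the NF-kB inhibitor A20, had 1406 CPM in Mg-TAGelMA and 383 CPM in Mg cells, a ratio of 3.67 (2.83 to 4.80), in 37 of 40 and 34 of 77 cells. Tnfrsf4 had a ratio of 3.83 (2.28 to 6.64), which was not past the rule without its highest cell or without the ribosomal gene models in the total. Cd69 and Tnfaip3 passed in both of these settings. All kept barcodes differed in the same direction on the scale of all genes, with Cd69 at 126 CPM in Mg-TAGelMA and 46.7 CPM in Mg barcodes and Tnfaip3 at 79.9 CPM in Mg-TAGelMA and 30.3 CPM in Mg barcodes, and whether CD4 T cells differed more than these was not tested.

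The interferon response list had 4 of 16 short-intron members higher. Irf1, an interferon-induced transcription factor, had 478 CPM in Mg-TAGelMA and 84.6 CPM in Mg CD4 T cells, a ratio of 5.66 (3.35 to 9.99), in 23 of 40 and 15 of 77 cells. Ifi27l2a had 2186 CPM in Mg-TAGelMA and 534 CPM in Mg cells, a ratio of 4.09 (3.30 to 5.10), in 33 of 40 and 39 of 77 cells. Ifitm3, which restricts virus entry, had 317 CPM in Mg-TAGelMA and 62.3 CPM in Mg cells, and 13 of the 15 Ifit3 UMIs of Mg-TAGelMA cells lay in 1 cell. On the scale of all genes, all kept barcodes had Irf1 at 126 CPM in Mg-TAGelMA and 36.5 CPM in Mg. In the same order they had Ifi27l2a at 306 and 153 CPM and Ifitm3 at 913 and 310 CPM. Whether CD4 T cells differed more in these interferon genes was not tested. Beside Cd69, survival and immediate early genes past the rule were Pim1, a kinase induced by cytokines (3.03, 2.41 to 3.84), and the antiproliferative gene Btg1 (2.51, 2.23 to 2.82; not without the ribosomal gene models). Areg had a ratio of 9.92 (2.90 to 52.6). Of neutrophil markers 5 of 7 were higher, with Retnlg at 1671 CPM in Mg-TAGelMA and 84.6 CPM in Mg CD4 T cells. These markers moved with the genes above, and their part in those differences was not tested.

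By rank on the short-intron scale, the genes highest in Mg-TAGelMA CD4 T cells began with Mir142hg, the host transcript of a microRNA of blood cells, which had 1369 CPM in Mg-TAGelMA and 44.5 CPM in Mg cells, a ratio of 30.8 (16.4 to 65.2), in 36 of 40 and 7 of 77 cells. Dgat1, an enzyme of triglyceride synthesis, had 626 CPM in Mg-TAGelMA and 44.5 CPM in Mg cells, a ratio of 14.1 (7.28 to 30.4), in 30 of 40 and 10 of 77 cells. Polg2, the accessory subunit of the mitochondrial DNA polymerase, had a ratio of 17.1 (5.33 to 87.4), and Cox11, an assembly factor of cytochrome oxidase, of 18.2 (2.64 to 783) with 1 UMI in Mg cells. On the scale of all genes, all kept barcodes had Mir142hg at 419 CPM in Mg-TAGelMA and 15.4 CPM in Mg, and Dgat1 at 237 and 67.4 CPM. In the same order they had Polg2 at 14.5 and 6.24 CPM and Cox11 at 13.2 and 12.7 CPM. Whether CD4 T cells differed more than all kept barcodes was not tested. Cxcl10, an interferon-induced chemokine, had 52 UMIs in 8 Mg-TAGelMA cells, 29 of them in 1 cell, and 0 in Mg cells. With the 0 set to 3 over the group, its ratio was 28.7 (9.28 to 144). Mt1, a metallothionein that binds zinc, had 24 UMIs in 13 Mg-TAGelMA cells and 0 in Mg cells, a ratio of 13.2 (4.02 to 68.6) on the same footing. Ccl4 had 19 UMIs in 17 Mg-TAGelMA cells and 2 in Mg cells, and Ifitm6, Lst1 and Retnlg are genes of myeloid cells, with ratios of 15.3, 19.8 and 19.8. On the scale of all genes Retnlg had 722 CPM in Mg-TAGelMA CD4 T cells and 5499 CPM in all kept Mg-TAGelMA barcodes. Ccl4 had 60.5 CPM in these CD4 T cells and 353 CPM in these kept barcodes. Penk, the enkephalin precursor, was the named gene lower in Mg-TAGelMA, but 43 of its 44 Mg UMIs lay in 1 cell.

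Of the 30 T cell genes plotted with their intervals on the scale of all genes, 4 were higher in Mg-TAGelMA CD4 T cells and 1 lower. Of all 4103 genes compared, 13.2% were higher and 0.756% lower. The 4 of 30 therefore does not set T cell genes apart from all genes, and the genes are given as a description. Icos, a costimulatory receptor of activated and follicular helper cells with 19.0 kb of intron, had 662 CPM in Mg-TAGelMA and 77.3 CPM in Mg cells, a ratio of 8.56 (5.76 to 13.2), in 31 of 40 and 20 of 77 cells. Ctla4, with 26.5 kb, had 442 CPM in Mg-TAGelMA and 93.8 CPM in Mg cells, a ratio of 4.71 (3.22 to 7.08), in 26 of 40 and 19 of 77 cells. Ikzf2, with 144 kb, had 789 CPM in Mg-TAGelMA and 268 CPM in Mg cells, a ratio of 2.95 (2.32 to 3.77) that was not past the rule without its highest cell. Zbtb16, with 177 kb, rests on the single cell described above. All 4 have over 8 kb of intron and could not be compared on the short-intron scale. Trbc1 was lower, with 229 CPM in Mg-TAGelMA and 712 CPM in Mg cells, a ratio of 0.322 (0.244 to 0.419). On the short-intron scale its log2 ratio was -1.12 and it was not past the rule.

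Most genes of CD4 T cell state were not past the rule between the nails. Foxp3 (0.943), Gata3 (0.839, 0.544 to 1.28), Cd28 (0.901, 0.719 to 1.13) and Izumo1r (1.12, 0.666 to 1.88) had intervals that held 1. The ratios of Ltb, the lymphotoxin beta chain (0.402, 0.310 to 0.516), the interleukin 7 receptor gene Il7r (0.504, 0.398 to 0.635) and the naive cell factor Tcf7 (0.555, 0.426 to 0.718) had intervals wholly below 1 that did not clear 2-fold, while those of Ccr7 (1.89, 1.16 to 3.15) and Cd69 (2.83, 1.96 to 4.15) lay wholly above 1.

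By list, on the scale of all genes, the counts of higher genes can be read only against the 13.2% of all genes that were higher and against intron length. Signalling genes of the T cell receptor had 3 of 23 members higher, among them the adaptor gene Skap1 (ratio 6.98) and the phosphatase gene Ptpn22 (3.70). CD4 lineage regulators had 3 of 12, Tox (6.48), Runx1 (4.40) and Satb1 (2.99). Naive and recirculation genes had 4 of 14, led by the repressor gene Bach2 (1114 CPM in Mg-TAGelMA and 110.4 CPM in Mg cells, ratio 10.1) and Foxp1 (3.05), and effector and memory genes 1 of 24, Lgals3 (4.82). Regulatory T cell genes had 3 of 11, Ctla4, Ikzf2 and the ectonucleotidase gene Entpd1, and activation and inhibitory receptors 4 of 12, among them the nuclear receptor gene Nr4a3 (13.8). Type 1 genes had 2 of 6 (Stat4, 7.13, and Il12rb2), type 17 genes 2 of 2 (Rora, 7.72, and Stat3, 4.64) and follicular helper genes 2 of 4, Icos and Bcl6. Bcl6, the factor of follicular helper cells, had 134 CPM in Mg-TAGelMA and 13.8 CPM in Mg cells, a ratio of 9.68 (3.84 to 31.4), and was detected in 18 of 40 Mg-TAGelMA and 5 of 77 Mg cells. All kept barcodes differed in the same direction, with Bcl6 at 107 CPM in Mg-TAGelMA and 21.9 CPM in Mg barcodes. In the same order they had Lgals3 at 531 and 182 CPM and Entpd1 at 197 and 12.5 CPM. Whether CD4 T cells differed more than all kept barcodes in the genes of these lists was not tested.

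Cytokine receptor and signalling genes had 4 of 19 members higher, led by Stat5b (7.15), Stat5a (4.61) and Tgfbr2 (3.17), and survival genes 3 of 17, Bcl2l11 (9.35), Birc3 (6.34) and Bcl2l1 (5.11). Magnesium transport genes had 2 of 5, with Arl15, a small GTPase that acts on magnesium transporters, at 474 CPM in Mg-TAGelMA and 11.04 CPM in Mg cells, and Cnnm2 at 22 UMIs in Mg-TAGelMA and 0 UMIs in Mg cells. Arl15 has 359 kb of intron and Cnnm2 113 kb. All kept barcodes differed in the same direction, with Arl15 at 235 CPM in Mg-TAGelMA and 6.95 CPM in Mg barcodes. Cnnm2 had 99.2 CPM in Mg-TAGelMA and 7.13 CPM in Mg kept barcodes, and whether CD4 T cells differed more was not tested. The magnesium transporter gene Magt1 had 28.6 CPM in Mg-TAGelMA and 44.2 CPM in Mg cells, a ratio of 0.649 (0.253 to 1.56). Interferon genes had 3 of 26 higher, Oasl2, Irf1 (3.94) and Ifi27l2a (2.85), and 1 lower, Rsad2, of whose 27 Mg UMIs 25 lay in 1 cell. Of 18 immediate early, 20 proliferation and 15 homing receptor genes 0 were past the rule in either direction. Cytotoxic genes had 1 of 4 higher (Ccl4), natural killer T genes 1 of 3 (Zbtb16), bone-active ligands 1 of 5 (Areg) and type 2 genes 0 of 3. Neutrophil markers had 3 of 6 higher (median log2 ratio 1.52) and erythroid markers 5 of 6 lower (-5.43), beside the levels of these markers given above. Of the genes named by list, Satb1, Ikzf2, Entpd1, Il12rb2, Stat5a, Bcl2l1, Cnnm2, Zbtb16, Areg, Irf1, Ifi27l2a and Rsad2 were not past the rule on this scale without their highest cell.

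Named by rank, the genes with the largest ratios over all genes were ones with 61.3 to 557 kb of intron. March3, a ubiquitin ligase gene, had 592 CPM in Mg-TAGelMA and 5.52 CPM in Mg CD4 T cells, a ratio of 107 (29.3 to 892), and was followed by Kcnq5, Atrnl1, Scfd2, Tbc1d30, Smyd3, Nol10, Gtdc1, Gphn and Ppard, with ratios between 45.0 and 61.1. With haemoglobin, mitochondrial and ribosomal genes and unnamed models such as Gm42418 left out of the ranking, the genes farthest lower were Slc25a37, the mitochondrial iron importer of erythroid cells (3.18 CPM in Mg-TAGelMA and 116 CPM in Mg cells), and Lars2, a mitochondrial leucyl-tRNA synthetase gene (79.5 CPM in Mg-TAGelMA and 2326 CPM in Mg cells). Lars2 was grouped with Gm42418 and AY036118 where these were taken out of the sum. All kept barcodes differed in the same direction, with Lars2 at 77.1 CPM in Mg-TAGelMA and 1839 CPM in Mg barcodes. Slc25a37 had 39.3 CPM in all kept Mg-TAGelMA and 260 CPM in all kept Mg barcodes. Id3, an inhibitor of E proteins in T cells with 0.468 kb of intron, had 6.36 CPM in Mg-TAGelMA and 69.0 CPM in Mg cells, a ratio of 0.0922 (0.0106 to 0.370), and Irf3, an interferon regulatory factor with 1.76 kb, 12.7 CPM in Mg-TAGelMA and 96.6 CPM in Mg cells, a ratio of 0.132 (0.0340 to 0.369). On the short-intron scale neither Id3 nor Irf3 was past the rule. All kept barcodes differed in the same direction, with Id3 at 20.1 CPM in Mg-TAGelMA and 60.2 CPM in Mg barcodes. Irf3 had 14.6 CPM in all kept Mg-TAGelMA and 39.0 CPM in all kept Mg barcodes. Whether CD4 T cells differed more was not tested. The other genes among the farthest lower were Penk, Rsad2, Bag6, Adamts10, Pcmtd2 and Psme3, of which Penk, Rsad2 and Bag6 were not past the rule without their highest cell.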

How the data were processed

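Single-cell RNA was measured in 1 Mg-TAGelMA nail and 1 Mg nail library, so no test between nails was possible. The deposited values are raw UMI counts per gene and barcode from Cell Ranger 7.0.1 (Mg-TAGelMA) and 5.0.0 (Mg), per the file headers; STAR and mm10 are named per the submitters' processing notes. The other deposited files are gene tables and barcode lists. Whether intronic reads were counted is not given in the sources used here. Intron lengths came from GENCODE for 32235 of 32285 genes.

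UMIs were summed per library and class. Ratios have exact conditional binomial intervals and shares exact Clopper-Pearson intervals at 95%. The size rule required an interval beyond 2-fold and 50 CPM on the higher side, with a sum of 0 set to 3 counts. Pairs within a library were called only where both libraries passed in 1 direction. B-lineage barcodes held at least 4 UMIs of Cd79a and Cd79b, and neutrophil barcodes at least 4% of UMIs from S100a8 and S100a9. Thinning drew 1000 UMIs per barcode. Doublets (scrublet in scanpy 1.11.5) were 296 Mg-TAGelMA (3.93%) and 193 Mg barcodes (2.32%) and were kept. Without its highest cell means that the cell with most UMIs of the gene was removed from the higher side; this setting and the total without Gm42418 and AY036118 among short-intron genes were chosen after seeing the data. The CD4 T cells, the gene lists and the tests were chosen with earlier results of these data known.

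Genes were named when on a fixed list of T cell genes, when among the 10 highest or lowest past the size rule with a CD4 level of at least 25% of that in all kept barcodes, as up to 4 members of a list, or as up to 10 a direction in each pair. In the short-intron ranking the CD4 level was on the short-intron scale and the level in all kept barcodes on the scale of all genes. This raised the share, so genes under 25% on 1 common scale could be named there. Immunoglobulin, receptor variable, haemoglobin, mitochondrial, ribosomal and sex-linked genes and unnamed models were not named by rank. Promoter windows came from RefSeq on GRCm38.p6. Scaling alternatives used edgeR 4.0.16 and DESeq2 1.42.0 in R 4.3.3 for factors only. Other steps used Python 3.11.15, numpy 2.4.6, scipy 1.17.1, pandas 2.3.3 and matplotlib 3.10.9. The ratios were also tested on simulated Poisson sums, which held counting error but no differences between cells or in processing. A few list genes and a planned split of the cells without Foxp3 are not reported here.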

Additional observations from a re-analysis of the deposited data

Results flagged for a closer look

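Tent5a, a poly(A) polymerase gene, stood out because CD4 and CD8 T cells differed in opposite directions in the libraries. Its log2 ratio of CD4 over CD8 was 1.75 in the Mg-TAGelMA library, with 185 CPM in CD4 and 54.9 CPM in CD8 T cells, and -1.87 in the Mg library, with 33.1 CPM in CD4 and 121 CPM in CD8 T cells. The 58 UMIs of Mg-TAGelMA CD4 T cells lay in 11 cells, with 24 in the highest, and neither call held without the highest cell. In both libraries the gene was higher in CD4 T cells with Foxp3 than in the others. The difference between libraries was not tested, since each nail has 1 library.

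CD3-positive barcodes with 0 UMIs of Cd4, Cd8a and Cd8b1 were outside the rule, yet 5.34% of them in the Mg-TAGelMA library (7 of 131, 2.18 to 10.7) and 9.71% in the Mg library (17 of 175, 5.76 to 15.1) held a Foxp3 UMI. In CD8 T cells the share was 0.704% in the Mg-TAGelMA library (0.0178 to 3.86) and 0.398% in the Mg library (0.0101 to 2.20). Beside the 11 Mg-TAGelMA and 12 Mg CD4 T cells with Foxp3, these 7 Mg-TAGelMA and 17 Mg barcodes were not counted as CD4 T cells.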

How the results depend on the processing

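Thinned before the rule, the CD4 share ratio was 0.175, CD4 T cells were 8.82% of both classes in Mg-TAGelMA, and 0 of 18 Mg CD4 T cells held Foxp3. The count of genes higher in Mg-TAGelMA was 819 at a 1.5-fold bound, 143 with members thinned, 54 among short-intron genes and 40 there without the ribosomal models. The count of lower genes was 49 under TMM, 55 under median-ratio scaling, 50 in a sum without Gm42418, AY036118 and Lars2, 99 at a 1.5-fold bound, 7 thinned, 8 among short-intron genes and 10 there without the ribosomal models. Without the highest cell the Foxp3 pair kept 2 higher and 0 lower genes. The settings for thinning and short introns leave fewer UMIs or genes, and the cause of the other changes was not tested. The share with a Foxp3 UMI, higher in Mg-TAGelMA at full depth, was 7.50% in Mg-TAGelMA and 9.09% in Mg cells with members thinned. No called result reversed under the alternatives run. Of the values of main comparisons 16 moved and 70 stayed within their limits, and of the values outside them 114 moved and 984 did not. Among values of T cell genes 22 moved and 332 did not. Removing doublets left 39 Mg-TAGelMA and 75 Mg CD4 T cells. No paired analysis was possible because each nail has 1 library and the labels share no replicate numbers. Depth limits genes under about 50 CPM, and 40 Mg-TAGelMA and 77 Mg cells limit every share.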
